A study of Mus musculus with 4 samples.

Results

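The transcripts described here are 36 genes of glycolysis and of the response to low oxygen, chosen by symbol from knowledge of these pathways. Of the 36 symbols, 35 had a row among the 23284 gene rows of the files, and Pkm had none. They were followed in stroma of the mouse large intestine, from which living cells carrying podoplanin but no CD45 (leukocytes), CD31 (endothelium) or EpCAM (epithelium) had been sorted. The series has 4 groups with 1 library each: wild-type BALB/c, Rag2 knockout on BALB/c, wild-type C57BL/6J and IL-10 knockout on C57BL/6J. Rag2 is needed to assemble antigen receptors, so that T and B cells do not mature without it, and IL-10 is a cytokine that restrains inflammation. The labels give no age, sex, number of animals or any treatment. With 1 library per group no value has a replicate error and no test between groups was made, so "higher" and "lower" describe these libraries only.

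Levels are given in FPKM, which scales the fragments of a gene by its transcript length and by the size of the library. The estimated depth was 8352000 to 9930000 fragments per library. The libraries of the knockout groups are called Rag2-KO-labelled and IL-10-KO-labelled below, since the targeted genes do not check their labels. Il10 was listed at 3.38 FPKM in wild-type BALB/c and 7.04 in the Rag2-KO-labelled library, then 3.33 in wild-type C57BL/6J and 129.9 in the IL-10-KO-labelled library, and Rag2 at 0.712 FPKM in the Rag2-KO-labelled library and at 0 in the others. Whole-gene FPKM do not show whether a deleted part is present. Podoplanin (Pdpn) was at 158 to 293 FPKM, and the 10 fibroblast markers summed to 12418 to 14356 FPKM per library. Markers of other cells were unequal. The 12 leukocyte markers summed to 147 FPKM in wild-type BALB/c and 216 in the Rag2-KO-labelled library, then 83.6 in wild-type C57BL/6J and 791 in the IL-10-KO-labelled library. The 12 neutrophil markers summed to 30.4, 277, 16.0 and 4034 FPKM in that order, with 4 of them at 0 in C57BL/6J wild type and 1 at 0 in BALB/c wild type, and the 14 epithelial markers to 58.2, 185, 121 and 452 FPKM. The 8 B and plasma cell markers in the files summed to 465, 3.15, 249 and 495 FPKM, and were thus nearly missing from the Rag2-KO-labelled library alone. The 12 T and innate lymphoid markers were not, with sums of 85.8, 117, 69.0 and 221 FPKM. Of 10 compared on BALB/c, 2 were at least 2-fold lower in the Rag2-KO-labelled library and 0 higher. On C57BL/6J, 10 of 11 were at least 2-fold higher in the IL-10-KO-labelled library. Smooth muscle markers were lower in both knockout-labelled libraries, with sums of 1007, 495, 906 and 388 FPKM for 10 genes. Xist was at 23.0 FPKM and the Y-linked Ddx3y at 16.9 FPKM in C57BL/6J wild type, against 44.9 and 0.027 FPKM in the IL-10-KO-labelled library, so the C57BL/6J libraries also differ in sex-linked transcripts. The wild types differ in them too, with 2 of 5 such genes at least 2-fold higher and 1 lower in BALB/c. Between the BALB/c libraries, 0 of 4 compared were 2-fold apart.

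Glycolysis splits glucose into pyruvate, and lactate dehydrogenase and the lactate exporters let a cell run it without the mitochondria. When oxygen is scarce, the prolyl hydroxylases encoded by the Egln genes stop marking the HIF alpha proteins (HIF-1 alpha from Hif1a, HIF-2 alpha from Epas1) for destruction. The stabilised proteins pair with ARNT, bind a short core motif and switch on glycolytic enzymes, glucose and lactate transporters, vascular growth factors and the Egln genes themselves. Hif1a transcription also responds to inflammatory signals, and activated leukocytes run glycolysis at a high rate. The epithelial surface of the colon is among the least oxygenated tissue borders of the body.

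Some members were listed at levels near 0. Gapdh, the glyceraldehyde-3-phosphate dehydrogenase of every cell, was listed at 0.196 FPKM in wild-type BALB/c and 0.302 in the Rag2-KO-labelled library, then 0.335 in wild-type C57BL/6J and 0.349 in the IL-10-KO-labelled library, which is 2 or 3 fragments each. Eno1, the main enolase, was listed at 0 in both C57BL/6J libraries and under 0.0001 FPKM in both BALB/c libraries. These genes share sequence with annotated pseudogenes, which was measured as the share of a transcript's 50-base words also found in GENCODE pseudogene transcripts. The share was 90.4% for Gapdh, spread over 215 pseudogenes, 68.0% for Pgk1, 52.8% for Eno1 and 41.5% for Pgam1. With words found in transcripts of any other gene, it was 72.2% for Eno1 and again 90.4%, 68.0% and 41.5% for Gapdh, Pgk1 and Pgam1. Pgk1 (phosphoglycerate kinase) had 2.15 to 3.62 FPKM and Pgam1 (phosphoglycerate mutase) 2.60 to 3.94 FPKM over the 4 libraries. All 4 of these genes are thus listed below 4 FPKM, although every cell uses the steps they catalyse. The part of the shared sequence in these low values was not tested. Pgk1 and Pgam1 passed the filter of the comparisons and are counted among the members compared below, whereas Gapdh and Eno1 did not pass it. Of the other members, 25 shared no word with a pseudogene and 6 shared between 0.0428% and 21.9%. Ldha and Aldoa, with 19.1% and 8.82%, were nevertheless the most abundant members. The 7 Gapdh pseudogenes that have a row in the files reached 1.22 FPKM at most. Pkm, which encodes pyruvate kinase, has no row, but its older symbol Pkm2 does. That row, looked up after the absence was seen and not counted below, held 100.1 FPKM in wild-type BALB/c and 150.0 in the Rag2-KO-labelled library, then 108 in wild-type C57BL/6J and 135 in the IL-10-KO-labelled library.

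**Figure D1:**
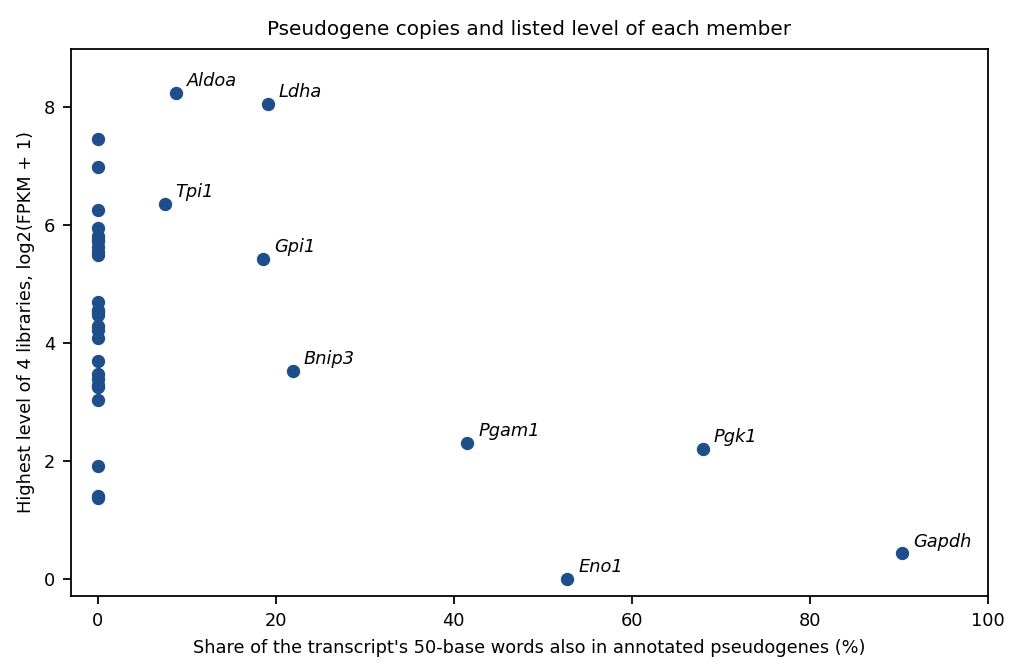
The share of each member's 50-base words that also occur in annotated pseudogenes (x axis, percent) against its highest level of the 4 libraries (y axis, log2 of FPKM plus 1), 1 point per gene with its name where the share is above 1%. Gapdh, Pgk1, Eno1 and Pgam1, at 41.5% or more, lie below every other named gene.

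Most of the other members were well expressed in all 4 libraries. Among members at 1 FPKM or more, the median was 17.95 FPKM in wild-type BALB/c and 20.6 in the Rag2-KO-labelled library, then 19.4 in wild-type C57BL/6J and 18.4 in the IL-10-KO-labelled library, and the median over all genes at 1 FPKM or more was 9.34 to 9.72. FPKM is scaled by length, so levels of different genes can be set side by side. Among the symbols with a row, the same 4 genes headed the list in every library. These were Ldha and Aldoa at more than 200 FPKM, then Ndrg1, a stress gene induced by hypoxia, and Hk2. The Pkm2 row, left out of this ranking, was above Hk2 in every library but BALB/c wild type. At the low end, Aldoc, Car9 and Pdk1 stayed below 3 FPKM. Of the 33 members that reached 1 FPKM in some library, 14 had their highest value in the IL-10-KO-labelled library, 9 in the Rag2-KO-labelled one, 6 in C57BL/6J wild type and 4 in BALB/c wild type. The lowest value lay in the IL-10-KO-labelled library for 9 of them and in the Rag2-KO-labelled one for 3. It lay in C57BL/6J wild type for 12 and in BALB/c wild type for 9. These counts were not made over all genes, so they are no trait of the members. For 12 of the 33 the highest and lowest library were less than 0.5 apart on the log2(FPKM + 1) scale. P4ha1 varied least, with 0.06, and Slc16a3 most, with 1.73.

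**Figure D2:**
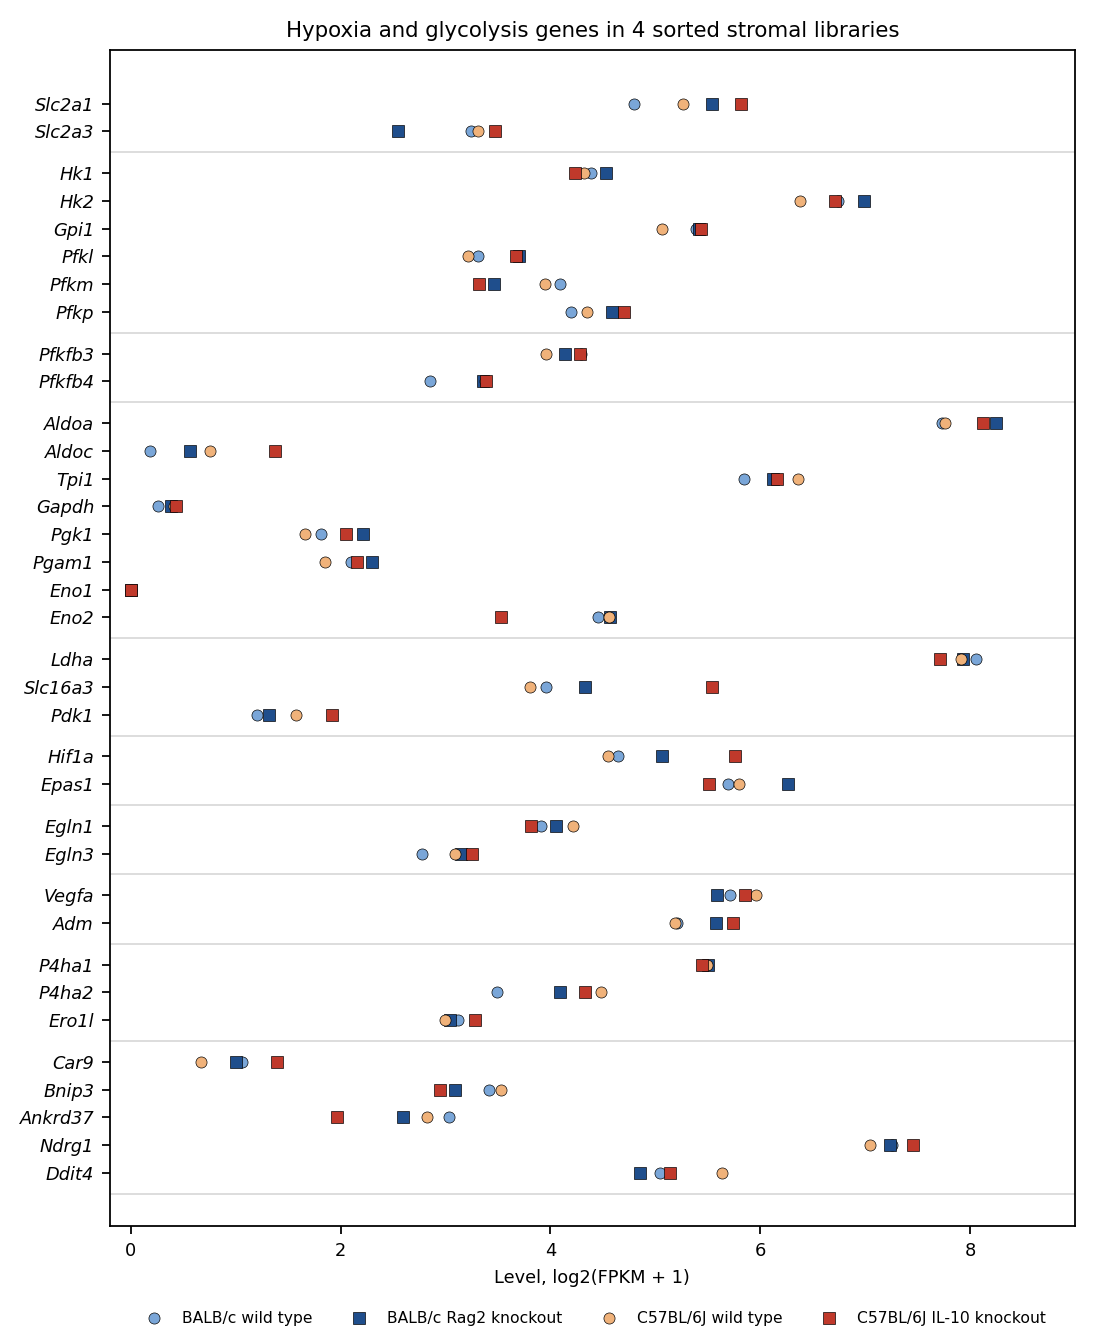
Level of each of the 35 members (rows, grouped by role) in the 4 libraries (points), on a log2(FPKM + 1) axis. Most members lie close together, whereas Slc16a3 and Hif1a stand apart to the right and Eno2 and Ankrd37 to the left in the IL-10-KO-labelled library (red squares).

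The first comparison sets the IL-10-KO-labelled library against its wild type and asks how colonic stroma differs in mice labelled as lacking IL-10. Slc16a3, an exporter of lactate, and Hif1a were at least 2-fold higher in it, and the neuronal-type enolase gene Eno2 was at least 2-fold lower. A gene was compared when it reached 1 FPKM in either library, and counted as 2-fold apart on the log2(FPKM + 1) scale. Of 33 members compared, 2 (6.06%) were higher and 1 (3.03%) was lower. Over all 12790 genes compared, 10.1% were higher and 3.82% lower, so the members were not called more often than genes at large. Their median log2 ratio was 0.29, against 0.00 over all genes, with 20 above 0 and 13 below. This median depends on the settings and was 0.086 among the 28 members with at least 5 FPKM in either library and 0.17 without Pgk1 and Pgam1. Slc16a3, Hif1a and Eno2 were also 2-fold apart under both alternative scalings, while Eno2 was not with a pseudocount of 5. Of these scalings, the one by the median ratio had factors of 0.985 to 1.016 and could change little.

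Between the Rag2-KO-labelled library and its BALB/c wild type, 0 of 32 members were at least 2-fold higher or lower, where 4.42% of all 12336 genes were higher and 2.03% lower. The members' ratios ran from -0.70 for Slc2a3 to 0.74 for Slc2a1, both genes of glucose transporters. The median was 0.14, with 21 above 0 and 11 below, against 0.00 over all genes. When rows of small RNAs are left out and the remaining values rescaled, the median over all genes of this comparison becomes -0.13 and that of the members 0.018. BALB/c against C57BL/6J wild type likewise had 0 of 32 members at least 2-fold apart, where 1.81% of all 12290 genes were higher and 2.17% lower in BALB/c. P4ha2, at -0.997, lay just short of the threshold there.

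**Figure D3:**
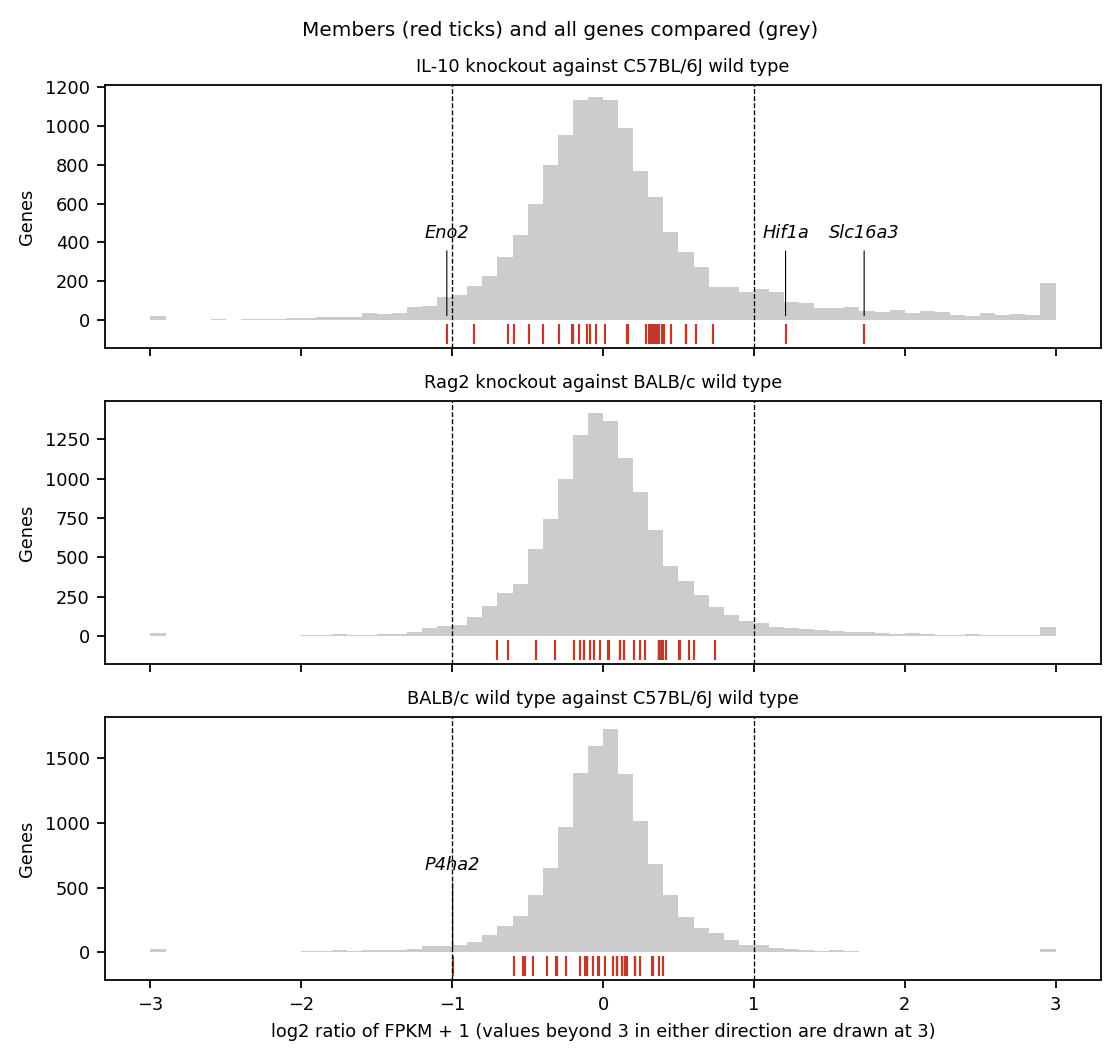
log2 ratio of FPKM + 1 (x axis) for all genes compared (grey histogram, number of genes) and for the members (red ticks) in the 3 comparisons, with 2-fold marked by dashed lines. Most members lie within the bulk of all genes. Slc16a3, Hif1a and Eno2 pass the lines in the top panel, and P4ha2 lies next to the line in the bottom panel.

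Counting error is the single error these files allow. Fragments per gene were estimated from the depth and the transcript length, and each fold in FPKM was given a 95% interval for counting error only. For the IL-10-KO-labelled library, that interval lay above equality for 15 of the 33 members, below it for 9 and across it for 9. Over the 12435 genes with such an interval there, 28.4% lay above and 27.7% below. For the Rag2-KO-labelled library the members' numbers were 14 above, 4 below and 14 across of 32, beside 25.6% above and 24.2% below over all genes. For BALB/c against C57BL/6J wild type they were 5, 10 and 17 of 32, beside 21.5% above and 21.3% below. The members' median level is above that of all genes, and more fragments make an interval narrower, so these shares are not like for like. Such an interval speaks of the 2 libraries and leaves out the variation between animals.

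Glucose enters fibroblasts mainly through GLUT1, the product of Slc2a1. Slc2a1 had 26.8 FPKM in wild-type BALB/c and 45.6 in the Rag2-KO-labelled library, then 37.5 in wild-type C57BL/6J and 55.4 in the IL-10-KO-labelled library. Both knockout-labelled libraries were above both wild types. How often all genes show such an order was not counted, so here and below it is no trait of the members. The difference in Slc2a1 was 1.70-fold on BALB/c (counting interval 1.56 to 1.85) and 1.48-fold on C57BL/6J (1.36 to 1.60). C57BL/6J wild type was itself above BALB/c wild type. Slc2a3, the high-affinity transporter GLUT3 of neurons and leukocytes, had 8.50, 4.84, 8.93 and 10.1 FPKM in the same order of libraries. It was lowest in the Rag2-KO-labelled library, 1.76-fold below BALB/c wild type, and differed between the C57BL/6J libraries by no more than counting error. GLUT1 transcripts thus exceeded those of GLUT3 by 3.16 to 9.43 times.

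The first steps of glycolysis phosphorylate glucose and commit it to breakdown. Hk2, the inducible hexokinase, had 106 FPKM in wild-type BALB/c and 126 in the Rag2-KO-labelled library, then 82.0 in wild-type C57BL/6J and 104 in the IL-10-KO-labelled library. Hk1, the widespread form, stayed between 17.8 and 22.1 FPKM. Hk2 therefore outweighed Hk1 in every library, by 4.32 to 5.81 times. In both backgrounds Hk2 was a little higher in the knockout-labelled library, 1.19-fold on BALB/c and 1.26-fold on C57BL/6J. Gpi1, the phosphoglucose isomerase, was lowest in C57BL/6J wild type at 32.4 FPKM and between 40.8 and 42.2 FPKM in the other libraries.

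The phosphofructokinase isoforms, which catalyse the committing step, differed in the same way in both backgrounds. Pfkm, the muscle isoform (chr15:98092589-98132447), had 16.1 FPKM in wild-type BALB/c and 10.04 in the Rag2-KO-labelled library, then 14.5 in wild-type C57BL/6J and 8.99 in the IL-10-KO-labelled library. Pfkl, the liver isoform, had 8.91, 12.02, 8.31 and 11.7 FPKM in the same order. Pfkp, the platelet isoform, had 17.3, 23.0, 19.4 and 25.1 FPKM. Both knockout-labelled libraries were thus below both wild types for Pfkm and above both for Pfkl and Pfkp. Pfkm was 1.60-fold lower on BALB/c and 1.61-fold lower on C57BL/6J (counting interval 1.35 to 1.92), Pfkl 1.35-fold and 1.41-fold higher, and Pfkp 1.33-fold and 1.29-fold higher. As a share of the summed FPKM of the family, Pfkm went from 38.0% to 22.3% on BALB/c and from 34.3% to 19.6% on C57BL/6J. The smooth muscle markers, whose sums are given above, were lower in the same libraries, with 6 of 10 at least 2-fold lower on BALB/c and 8 of 10 on C57BL/6J. Their part in the Pfkm values was not tested. In bulk samples fewer cells of a type and less RNA per cell cannot be told apart. Pfkm was the single member at least 1.5-fold apart in the same direction in both knockout comparisons, which share no library, where 9.89% of the 12048 genes compared in both met this condition.

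**Figure D4:**
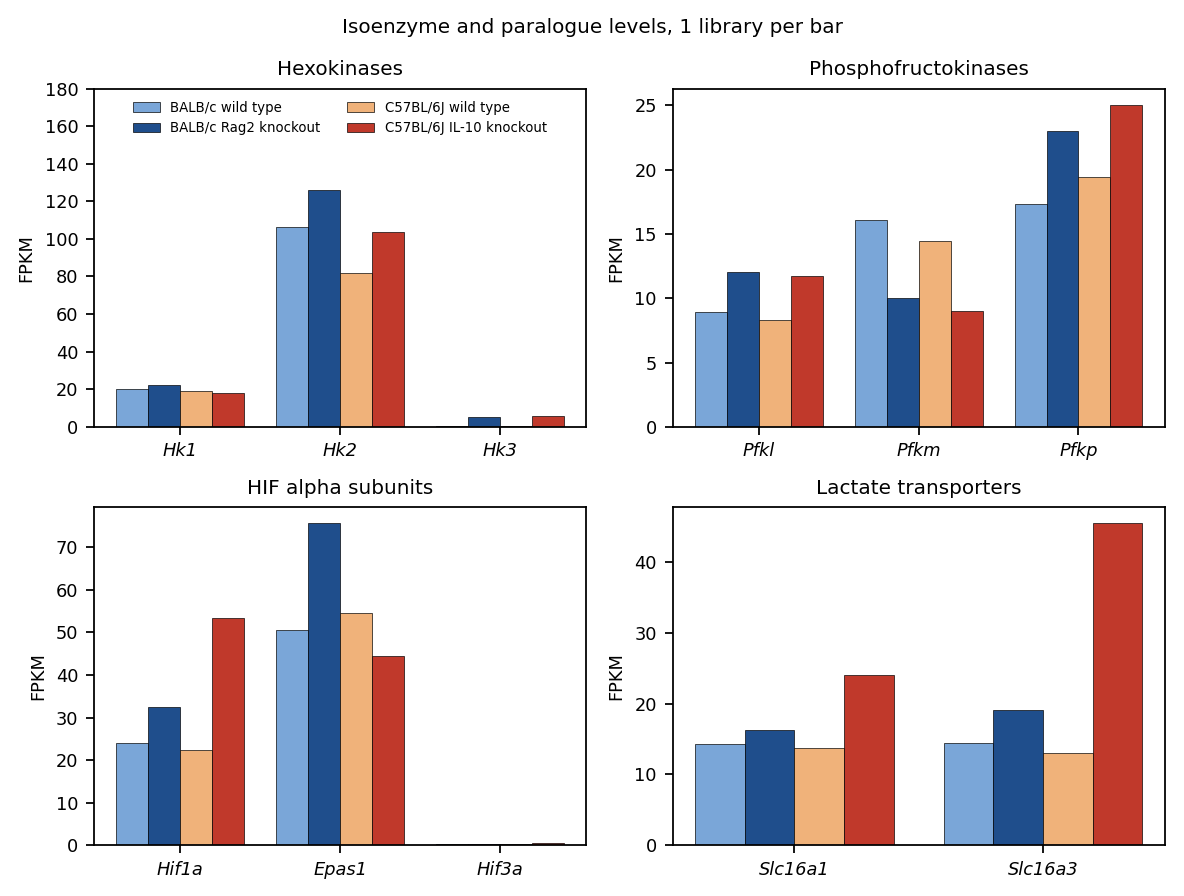
FPKM (y axis, from 0) of the hexokinases, phosphofructokinases, HIF alpha subunits and lactate transporters in the 4 libraries, 1 bar per library with no replicate error. Hk2 exceeds Hk1 everywhere, Pfkm is lower and Pfkl and Pfkp higher in both knockout-labelled libraries, and Hif1a exceeds Epas1 in the IL-10-KO-labelled library alone.

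The bifunctional PFKFB enzymes set the level of fructose-2,6-bisphosphate, an activator of phosphofructokinase. Pfkfb3, the form with the strongest kinase activity, held 48.1% to 59.0% of the FPKM of the 4 PFKFB genes. It had 18.6 FPKM in wild-type BALB/c and 16.6 in the Rag2-KO-labelled library, then 14.5 in wild-type C57BL/6J and 18.4 in the IL-10-KO-labelled library, a narrow range. Pfkfb4 was lower in BALB/c wild type, at 6.20 FPKM, than in the other libraries, which had 9.22 to 9.48 FPKM.

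Aldoa had the highest listed level of the enzymes from aldolase to enolase, of which Gapdh, Pgk1, Pgam1 and Eno1 are listed below 4 FPKM as given above. This aldolase had 212 FPKM in wild-type BALB/c and 302 in the Rag2-KO-labelled library, then 216 in wild-type C57BL/6J and 278 in the IL-10-KO-labelled library. The knockout-labelled libraries were above both wild types, by 1.43-fold on BALB/c and by 1.29-fold on C57BL/6J (counting interval 1.22 to 1.36). Aldoc, the brain aldolase, made up 0.0633% to 0.568% of the aldolase FPKM, and its 0.134 FPKM in BALB/c wild type stands for about 3 fragments. Tpi1, the triose phosphate isomerase, was highest in C57BL/6J wild type, at 81.3 FPKM, against 70.4 in the IL-10-KO-labelled library, 68.7 in the Rag2-KO-labelled one and 56.6 in wild-type BALB/c. Eno2 (chr6:124760053-124769673) had 20.9 FPKM in wild-type BALB/c and 22.7 in the Rag2-KO-labelled library, then 22.6 in wild-type C57BL/6J and 10.5 in the IL-10-KO-labelled library. The last stood apart from 3 nearly equal libraries, 2.15-fold below C57BL/6J wild type (counting interval 1.81 to 2.55; log2 ratio -1.04). On BALB/c the ratio was 0.12, so that the ratios of the knockout comparisons were 1.15 apart, a difference that was not tested.

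Glycolytic cells export lactate through MCT4, the product of Slc16a3 (chr11:120948484-120959000). Slc16a3 had 14.5 FPKM in wild-type BALB/c and 19.1 in the Rag2-KO-labelled library, then 13.0 in wild-type C57BL/6J and 45.5 in the IL-10-KO-labelled library. The last was above the other 3, and 3.50-fold above C57BL/6J wild type (counting interval 3.04 to 4.03; log2 ratio 1.73). On BALB/c the difference was 1.32-fold (1.14 to 1.53). Slc16a1, which encodes the related transporter MCT1 and is not a member, had 14.4, 16.3, 13.7 and 24.1 FPKM in that order, so the 2 transporters stood at a ratio of 0.95 to 1.17 in 3 libraries and of 1.89 in the IL-10-KO-labelled library. Ldha, the lactate dehydrogenase subunit that favours lactate, did not follow. It had 266 FPKM in wild-type BALB/c and 243 in the Rag2-KO-labelled library, then 239.9 in wild-type C57BL/6J and 209 in the IL-10-KO-labelled library, 1.15-fold lower than C57BL/6J wild type (1.09 to 1.21). Ldha exceeded Ldhb by 34.6 to 49.5 times. Pdk1, a kinase that shuts pyruvate out of the mitochondria, was at 1.30, 1.48, 1.97 and 2.78 FPKM in the same order of libraries.

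The HIF alpha subunits changed places in the IL-10-KO-labelled library. Hif1a (chr12:73901324-73947554) had 24.0 FPKM in wild-type BALB/c and 32.4 in the Rag2-KO-labelled library, then 22.5 in wild-type C57BL/6J and 53.3 in the IL-10-KO-labelled library. Epas1 had 50.6, 75.7, 54.6 and 44.5 FPKM in the same order. Hif1a was thus highest in the IL-10-KO-labelled library, 2.37-fold above C57BL/6J wild type (counting interval 2.18 to 2.58; log2 ratio 1.21), where Epas1 was lowest, 1.23-fold below (1.16 to 1.30). In the Rag2-KO-labelled library both were above BALB/c wild type, by log2 ratios of 0.42 for Hif1a and 0.57 for Epas1. The ratio of Hif1a to Epas1 was 0.473, 0.428 and 0.411 in the other libraries and 1.20 in the IL-10-KO-labelled library. All 12 leukocyte and all 12 neutrophil markers were at least 2-fold higher in that library than in C57BL/6J wild type, with medians of 2.92 and 4.51, and 13 of 14 epithelial and 12 of 14 macrophage and monocyte markers were. In the Rag2-KO-labelled library 0 of 12 leukocyte markers, 8 of 8 neutrophil markers compared, 12 of 14 epithelial and 6 of 14 macrophage and monocyte markers were at least 2-fold higher than in BALB/c wild type. The macrophage and monocyte markers summed to 373 FPKM in wild-type BALB/c and 802 in the Rag2-KO-labelled library, then 209 in wild-type C57BL/6J and 1596 in the IL-10-KO-labelled library. What part these cells have in the values of Hif1a, Epas1, Slc16a3 and Eno2 was not tested.

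Egln1 and Egln3, which encode oxygen-sensing prolyl hydroxylases and are themselves HIF targets, were less than 2-fold apart in every comparison. Egln1 had 14.1 FPKM in wild-type BALB/c and 15.6 in the Rag2-KO-labelled library, then 17.6 in wild-type C57BL/6J and 13.1 in the IL-10-KO-labelled library, 1.34-fold lower than its wild type (1.18 to 1.54). Egln3 had 5.85, 7.85, 7.50 and 8.54 FPKM in that order. It was 1.34-fold higher in the Rag2-KO-labelled library than in BALB/c wild type (1.08 to 1.67). Between the C57BL/6J libraries its difference lay within counting error. Egln2, which belongs to the family but not to the members, was the most abundant in every library, with 57.5% to 65.3% of the family's FPKM.

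The promoters of the members that stood out are shown because the HIF core motif is the known entry point of this pathway. The motif was searched as ACGTG and GCGTG on both strands in the 250 bases before each start in the RefSeq promoter table (GRCm38.p6, the build of the files). The table does not hold every start: the windows of Slc16a3, Hif1a, Ankrd37 and Ldha lie inside the RefSeq gene intervals, and the outermost starts of these genes were not searched. CACGTG reads as ACGTG on both strands, and there the matches overlap. Of 45 promoters of the 32 members in the RefSeq table, 37 (82.2%) held the motif, against 38.6% of all 32851 promoters of that length and 54.2% of those of genes at 1 FPKM or more in some library. For ACGTG alone the shares were 51.1%, 16.6% and 21.1%. The members were chosen as genes of these pathways, so a higher share can follow from that choice and is no result of these data. Some windows also overlap, as for neighbouring starts of Aldoa and Eno1, and are not separate promoters. Slc2a3, Epas1 and Ndrg1 were not matched. In the sequences, which run 5′ to 3′ on the gene's strand and end at the base before the start, capitals mark the motif. Slc16a3 and Hif1a were higher in the IL-10-KO-labelled library, Eno2 and Ankrd37 had the lowest ratios there, and Ldha was the most abundant member in both wild types and holds, with Bnip3, the most matches of any member promoter.
Slc16a3: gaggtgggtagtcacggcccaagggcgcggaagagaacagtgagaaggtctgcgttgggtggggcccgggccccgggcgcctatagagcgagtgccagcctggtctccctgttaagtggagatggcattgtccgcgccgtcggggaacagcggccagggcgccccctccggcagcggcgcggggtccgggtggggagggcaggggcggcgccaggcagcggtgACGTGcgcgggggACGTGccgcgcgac
Hif1a: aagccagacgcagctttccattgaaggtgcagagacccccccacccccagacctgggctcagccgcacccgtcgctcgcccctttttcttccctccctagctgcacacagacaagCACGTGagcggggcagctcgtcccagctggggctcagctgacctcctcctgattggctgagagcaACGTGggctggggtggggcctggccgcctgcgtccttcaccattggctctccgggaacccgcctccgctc
Eno2: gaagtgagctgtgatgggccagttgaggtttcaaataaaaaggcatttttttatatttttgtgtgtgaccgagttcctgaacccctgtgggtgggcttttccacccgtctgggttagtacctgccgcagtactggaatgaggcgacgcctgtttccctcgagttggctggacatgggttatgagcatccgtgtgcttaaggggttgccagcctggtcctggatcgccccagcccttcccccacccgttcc
Ankrd37: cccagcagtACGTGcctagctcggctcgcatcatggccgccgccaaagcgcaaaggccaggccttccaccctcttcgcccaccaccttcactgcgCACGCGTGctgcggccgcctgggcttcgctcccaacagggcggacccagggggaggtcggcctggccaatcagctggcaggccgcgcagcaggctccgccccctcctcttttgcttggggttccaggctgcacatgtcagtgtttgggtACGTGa
Ldha: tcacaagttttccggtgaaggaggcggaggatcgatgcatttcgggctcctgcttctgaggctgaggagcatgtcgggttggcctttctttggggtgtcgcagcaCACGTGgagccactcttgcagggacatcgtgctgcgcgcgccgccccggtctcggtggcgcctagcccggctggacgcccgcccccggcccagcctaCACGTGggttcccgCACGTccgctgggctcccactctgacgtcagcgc
Slc16a3 (chr11:120948817-120949066, plus strand) held ACGTG 27 and 14 bases before the start. Hif1a (chr12:73907617-73907866, plus strand) held CACGTG 135 bases and ACGTG 70 bases before it. No match stood in the Eno2 window (chr6:124769674-124769923, minus strand). Ankrd37 (chr8:45999851-46000100, minus strand) held ACGTG 241 and 6 bases before the start and, between them, CACGC and GCGTG 155 and 152 bases before it, which overlap. Ldha (chr7:46845554-46845803, plus strand, the start with more matches of 2 in the table) held CACGTG 145 and 48 bases and CACGT 34 bases before the start. Of the 32 members in the RefSeq table, 29 held the motif in some window. Its presence in members with higher, lower or nearly equal values was thus set beforehand, and no conclusion is drawn from it.

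Among secreted factors, Vegfa, which makes vessels grow, was close to its wild type in each knockout-labelled library. It had 51.5 FPKM in wild-type BALB/c and 47.0 in the Rag2-KO-labelled library, then 61.2 in wild-type C57BL/6J and 56.7 in the IL-10-KO-labelled library, and both differences between knockout and wild type lay within counting error. Adm, which encodes the vasodilator peptide adrenomedullin, was higher in both knockout-labelled libraries. It had 35.8, 46.7, 35.5 and 52.4 FPKM in that order, 1.30-fold (1.15 to 1.48) and 1.48-fold (1.29 to 1.69) above the wild types.

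The genes for collagen hydroxylation serve matrix production, a main task of fibroblasts. P4ha1, a catalytic subunit of collagen prolyl 4-hydroxylase, was at 43.1, 44.3, 44.0 and 42.5 FPKM, the most even values of any member above 1 FPKM. P4ha2, the alternative subunit, differed between the wild types more than between wild type and knockout. It had 10.2 FPKM in wild-type BALB/c and 16.0 in the Rag2-KO-labelled library, then 21.4 in wild-type C57BL/6J and 19.1 in the IL-10-KO-labelled library. Both BALB/c libraries were below both C57BL/6J libraries. Ero1l, which oxidises protein thiols in the endoplasmic reticulum, stayed between 6.98 and 8.74 FPKM.

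The remaining genes are widely used as signs of hypoxia, and they did not move together. Ankrd37 had 7.201 FPKM in wild-type BALB/c and 5.04 in the Rag2-KO-labelled library, then 6.08 in wild-type C57BL/6J and 2.91 in the IL-10-KO-labelled library. Bnip3, which directs mitochondria to autophagy, had 9.65, 7.53, 10.6 and 6.69 FPKM in the same order. Both genes were thus lower in the knockout-labelled libraries than in either wild type, and on C57BL/6J the differences exceeded counting error (2.09-fold, 1.19 to 3.67, and 1.58-fold, 1.14 to 2.19), while on BALB/c they did not. Ddit4, an inhibitor of the growth kinase mTORC1, was highest in C57BL/6J wild type, at 48.6 FPKM against 27.8 to 34.3 FPKM elsewhere. Ndrg1 went the other way on C57BL/6J, with 174.6 FPKM in the IL-10-KO-labelled library and 131 FPKM in wild type (1.33-fold, 1.27 to 1.39), and was level on BALB/c at 150.1 and 152 FPKM. Car9, a carbonic anhydrase that is strongly induced by HIF-1, was low, at 1.09, 1.001, 0.588 and 1.63 FPKM, which is 9 to 25 fragments. Its 2.78-fold difference on C57BL/6J therefore carries a wide counting interval of 1.31 to 5.89. On the log2(FPKM + 1) scale the low levels of Ankrd37 and Car9 keep both under the 2-fold threshold. Immediate early genes of tissue dissociation were abundant in all libraries, with a sum of 14443 to 20768 FPKM for 10 genes; their part in these values was not tested.

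Set side by side, the knockout comparisons had 14 of 32 members above 0 in both, 6 below 0 in both and 12 with opposite signs. The 62.5% with the same sign compare with 66.8% of all 12048 genes compared in both. Slc2a1, Hk2, Pfkl, Pfkp, Aldoa, Slc16a3, Hif1a and Adm had counting intervals above equality in both, and Pfkm, Ldha and Ddit4 had intervals below it in both. That is 8 and 3 of 32 members, beside 14.8% and 13.4% of the 11802 genes with both intervals. Epas1 and Tpi1 lay on opposite sides, lower in the IL-10-KO-labelled library and higher in the Rag2-KO-labelled one, as did 6.19% of those genes.

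**Figure D5:**
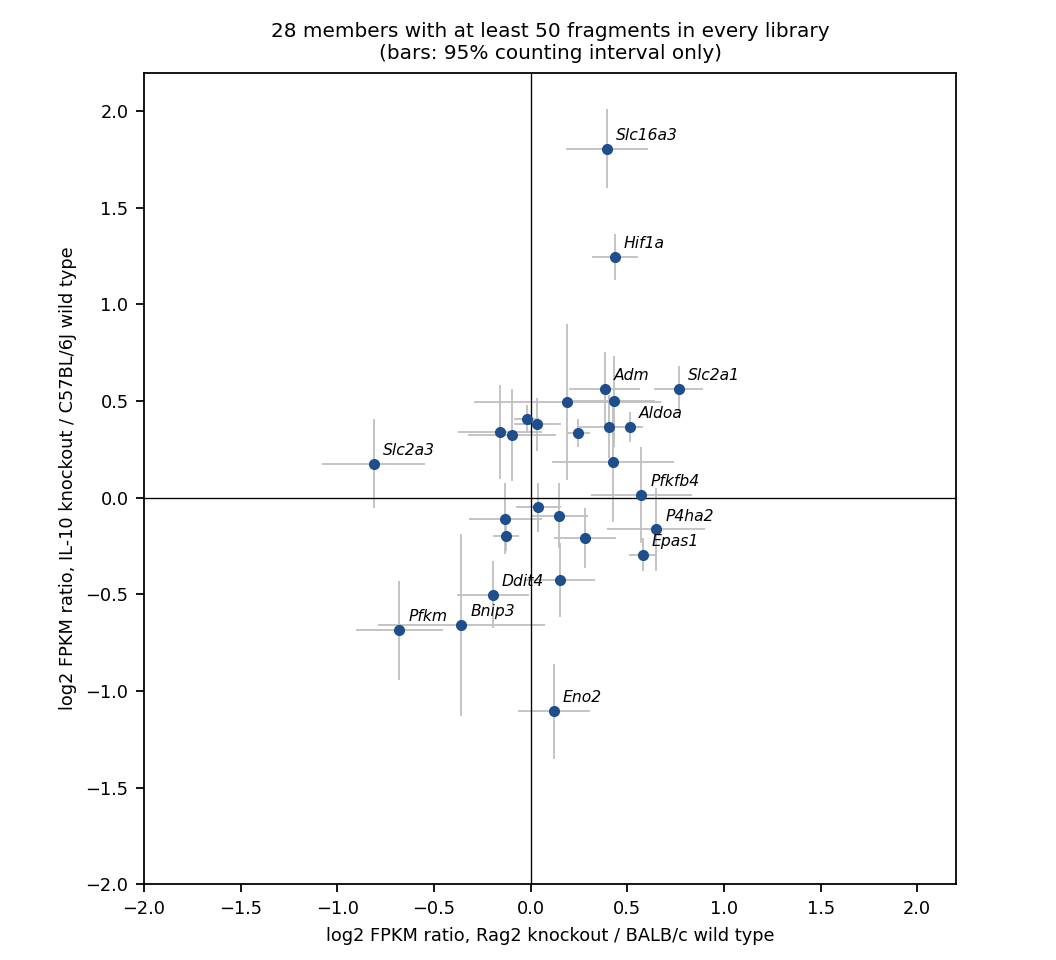
log2 FPKM ratio of the 28 members with at least 50 fragments in every library, the Rag2 comparison on the x axis and the IL-10 comparison on the y axis, with bars for the 95% counting interval only. Slc16a3 and Hif1a stand high on the y axis, Eno2 low, and Pfkm lies at the lower left, below 0 on both axes.

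Other genes of these pathways give the setting. Of 17 further glycolytic isoenzymes and transporters, 9 were compared for the IL-10-KO-labelled library, 2 were at least 2-fold higher and 0 lower, and for the Rag2-KO-labelled one 2 of 9 were higher and 1 lower. Hk3, a hexokinase of myeloid cells, had 0.299 FPKM in wild-type BALB/c and 5.02 in the Rag2-KO-labelled library, then 0.405 in wild-type C57BL/6J and 5.54 in the IL-10-KO-labelled library. Slc2a6, a transporter of the glucose transporter family that leukocytes express, had 2.03, 8.66, 2.73 and 16.5 FPKM in that order. Both were higher in the knockout-labelled libraries. Bpgm, which makes 2,3-bisphosphoglycerate, was set apart by BALB/c wild type, with 38.5 FPKM there and 15.5 to 18.5 FPKM in the other libraries.

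In the pentose phosphate pathway, which branches from glycolysis and supplies NADPH, 0 of 8 genes were at least 2-fold apart on C57BL/6J and 1 of 8 was higher on BALB/c. That gene, G6pdx, encodes the first enzyme of the pathway. It had 11.0 FPKM in wild-type BALB/c and 24.5 in the Rag2-KO-labelled library, then 12.5 in wild-type C57BL/6J and 23.7 in the IL-10-KO-labelled library, with log2 ratios of 1.09 and 0.87. None of 10 genes of pyruvate entry into mitochondria and none of 7 HIF regulators compared was 2-fold apart in either knockout comparison. The pyruvate carrier genes Mpc1 and Mpc2 are not among the 10 and have rows under the older symbols Brp44l and Brp44. Brp44 had 38.9 FPKM in wild-type BALB/c and 39.1 in the Rag2-KO-labelled library, then 45.1 in wild-type C57BL/6J and 39.4 in the IL-10-KO-labelled library. Brp44l had 0.860, 0.295, 2.94 and 2.55 FPKM in that order. Of 7 gluconeogenesis genes, 5 were compared on C57BL/6J and 1 was higher, the muscle-type bisphosphatase gene Fbp2 with 3.07 against 0.526 FPKM, named after its values were seen.

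Of 24 further HIF target genes, 23 were compared in each knockout comparison, and 3 were at least 2-fold higher in each, with 0 lower on C57BL/6J and 1 lower on BALB/c. The medians of the 23 log2 ratios were -0.08 on C57BL/6J and -0.17 on BALB/c. Angptl4, a secreted inhibitor of lipoprotein lipase, had 24.0 FPKM in wild-type BALB/c and 77.6 in the Rag2-KO-labelled library, then 9.38 in wild-type C57BL/6J and 29.6 in the IL-10-KO-labelled library. Nos2, the inducible nitric oxide synthase, had 0.239, 3.46, 0.212 and 8.75 FPKM in that order. Both were at least 2-fold higher in each knockout-labelled library. Cxcr4, a chemokine receptor of leukocytes, was higher on C57BL/6J, with 43.7 against 4.34 FPKM, and had 9.50 against 12.4 FPKM on BALB/c. The gene lower on BALB/c was Mxi1, which encodes an antagonist of MYC, with 5.50 against 12.1 FPKM; it was named after its values were seen. The 19 reference genes in the files, among them Actb, Tbp and the member Pgk1, had medians of 0.31 on C57BL/6J and 0.26 on BALB/c. The members had 0.29 and 0.14, so the 2 sets were close on C57BL/6J and less so on BALB/c.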

How the data were processed

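RNA from 4 sorted stromal libraries was extracted with a miRNeasy kit and made into libraries with the TruSeq stranded mRNA kit, per the labels. The deposited FPKM values, 1 per gene symbol, were computed by the authors, and alignment was done to mm10, with Cuffdiff 2.2.1, TopHat2 2.1.1, SAMtools 0.1.18 and Bowtie2 2.2.8 as tools, per the submitters' processing notes. Their annotation, strand setting and treatment of multiply mapping reads are not given in the sources. From these values, ratios of FPKM + 1 were taken on a log2 scale (pseudocount 1) with Python 3.11.15, for genes with at least 1 FPKM in either library. Depth was estimated from the steps of low FPKM values, which stand for whole fragments, in 2339 genes with 1 transcript of at least 1000 nt (length offset 200 nt). The procedure was tested on simulated data. Intervals (95%, Poisson) cover counting error alone and take each estimated fragment as independent. PCR copies are not independent molecules, so the intervals can be too narrow even for counting error. The length of a gene is the median over its GENCODE M21 basic coding transcripts. Positions and promoters are from RefSeq (GRCm38.p6). The alternatives were other pseudocounts, filters, scalings and, chosen after seeing the data, a threshold of 1.5-fold and leaving out Pgk1 and Pgam1. Named were all members, up to 4 genes per pathway list with at least 5 FPKM and a 2-fold difference, and checks of the libraries. Members and lists were chosen with earlier results of these data known.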

Additional observations from a re-analysis of the deposited data

Results flagged for a closer look

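Stc2, which encodes the secreted glycoprotein stanniocalcin-2 and is among the further HIF target genes, went in opposite directions in the knockout comparisons, by at least 1.5-fold in each. It had 5.44 FPKM in wild-type BALB/c and 17.6 in the Rag2-KO-labelled library, then 20.5 in wild-type C57BL/6J and 10.7 in the IL-10-KO-labelled library. The log2 ratio was -0.88 on C57BL/6J and 1.53 on BALB/c. The wild types were themselves 1.74 apart on this scale, with BALB/c lower (log2 ratio -1.74). The difference between the comparisons was not tested. None of the 35 members met this condition.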

How the results depend on the processing

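With 1 library per group no replicate could be left out. No paired analysis was possible because each group has 1 library. The counts of genes and of members at least 2-fold apart depended on the pseudocount and the filter. In the IL-10 comparison, the genes higher (1297) and lower (488) were 611 and 182 with a pseudocount of 5, and the lower ones 787 with a pseudocount of 0.1; the higher ones were 846 with a filter of 5 FPKM. Members higher (2) and lower (1) were 4 and 2 with a pseudocount of 0.1, which adds Aldoc, Car9 and Ankrd37, and the lower ones 0 with a pseudocount of 5. The members' median (0.29) was 0.15 with a pseudocount of 5, 0.086 with a filter of 5 FPKM, 0.17 with no filter, 0.16 without small RNA rows and 0.17 without Pgk1 and Pgam1, the last chosen after seeing the data. In the Rag2 comparison, the genes higher (545) were 278 with a pseudocount of 5. Those lower (251) were 532 with a pseudocount of 0.1, 68 with a pseudocount of 5 and 159 with a filter of 5 FPKM. The members' median (0.14) was 0.018 without small RNA rows. Between the wild types, the genes higher (223) and lower (267) in BALB/c were 477 and 452 with a pseudocount of 0.1 and 56 and 104 with one of 5, and the higher ones 129 with a filter of 5 FPKM. P4ha2 became the 1 member called with a pseudocount of 0.1. At a threshold of 1.5-fold the genes higher and lower were 2104 and 1393 (members 4 and 4) in the IL-10 comparison, 1270 and 944 (members 2 and 2) in the Rag2 comparison and 725 and 783 (members 0 and 2) between the wild types.

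Leaving out the 779 small RNA rows, which hold 8.80% to 14.8% of a library's FPKM sum, moved the median of all genes to -0.13 in both knockout comparisons. It changed the sign of 1 member of 33 (Pfkfb4), 3 of 32 (Gpi1, Eno2 and P4ha1) and 2 of 32 (Aldoa and P4ha1) in the IL-10, Rag2 and wild-type comparisons, each with a ratio of 0.12 or less. Scaling by the median ratio changed 0 signs, but its factors of 0.985 to 1.016 could change little. Of 388 recomputed member ratios, 369 stayed within the counting interval and 19 moved beyond it. Leaving out small RNA rows gave 17 of these moves and a pseudocount of 5 gave 2. Without small RNA rows, Hif1a in the IL-10 comparison went from 1.21 to 1.08, and Slc2a1 in the Rag2 comparison from 0.74 to 0.61. A reversal was counted only for ratios of at least 2-fold, and 0 were found. At the lowest depth, 3 fragments of a 2000 nt transcript correspond to 0.200 FPKM. Gapdh, Eno1 and, in BALB/c wild type, Aldoc are thus at or near the limit of these files. Car9, at 0.588 to 1.63 FPKM, and Aldoc in the IL-10-KO-labelled library, at 1.59 FPKM, lie above it but rest on few fragments.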
